A study of Mus musculus with 4 samples.

Results

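The genes described here encode the switch known as MPF (maturation-promoting factor) and the enzymes that set it: the kinase gene Cdk1, the B-type cyclin genes Ccnb1, Ccnb2 and Ccnb3, the inhibitory kinase genes Wee1, Wee2 and Pkmyt1, and the activating phosphatase genes Cdc25a, Cdc25b and Cdc25c. They were taken by symbol, and 10 of 10 were found, each on 1 row, among 23309 gene symbols. The data are RNA-seq of oocytes from ICR mice in 4 libraries, each made from 60 oocytes or embryos lysed together, from females 21 to 23 days old that had received PMSG/hCG. The groups were MII oocytes labelled Erk-/-, MII oocytes of wild type (WT), GV oocytes labelled Erk-/- and GV oocytes of WT, with 1 library each. GV (germinal vesicle) oocytes are fully grown and arrested before meiosis resumes, and MII oocytes are mature eggs arrested in the metaphase of the second meiotic division. The labels do not say which Erk gene or exons were removed, in which cells, or how, and the treatment text names Btg4-/- females where the sample labels give Erk-/-. The design text speaks of 1 oocyte per group, whereas the protocol gives 60 cells.

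CDK1 is active only when bound to a cyclin, and in MPF that partner is a B-type cyclin. The WEE family kinases WEE1, WEE2 and PKMYT1 block the bound kinase by phosphorylating a threonine and a tyrosine in its ATP-binding loop, and the CDC25 phosphatases remove those phosphates. A GV oocyte is held in arrest by this block, resumes meiosis when CDC25 wins over WEE, degrades cyclin B at the end of the first division and then keeps MPF high at MII until fertilisation. Transcription is almost silent in this period, so mRNA levels depend on stored message, and translation of several stored mRNAs is switched on through the cytoplasmic polyadenylation element (CPE), a U-rich site near the poly(A) signal of the 3′ UTR to which CPEB1 binds.

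The 3′ UTRs of these genes are shown because the series asks how stored mRNAs are removed, and this region is known to control their storage. For each gene the longest APPRIS principal transcript of GENCODE M21 (build GRCm38, strain C57BL/6J, not ICR) was searched on the sense strand for the CPE letters TTTTAT and TTTTAAT and for the poly(A) signal letters AATAAA and ATTAAA. Ccnb1 had 4 CPE matches in a 3′ UTR of 1028 bases and Wee2 had 2 in 850 bases. Each window below is 30 bases long, written 5′ to 3′ as DNA, with CPE and poly(A) signal letters in capitals. The Ccnb1 windows lie on the minus strand at chr13:100779239-100779268, chr13:100779076-100779105 and chr13:100778768-100778797, and the Wee2 window on the plus strand at chr6:40466764-40466793.
Ccnb1 upstream: ctttTTTTATgtaattatttatttgttctt
Ccnb1 middle: atatTTTTATatgggttcaTTTTATcaaca
Ccnb1 downstream: gctgTTTTAATttatacatctgatatcaag
Wee2: cataTTTTAATccagatcattgtaAATAAA
The Wee2 window holds a CPE and a poly(A) signal together, and the middle Ccnb1 window holds a pair of CPE matches.

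Cdk1, Ccnb2 and Ccnb3 also had CPE matches (2, 1 and 1), at chr10:69336255-69336284, chr9:70407852-70407881 and chrX:6979694-6979723 on the minus strand. Only the downstream of the Cdk1 matches is shown. Cdc25b, Wee1, Pkmyt1 and Cdc25c had no CPE match in 3′ UTRs of 1126, 1174, 124 and 248 bases. The window around the poly(A) signal of Cdc25b, at chr2:131198455-131198484 on the plus strand, is given for contrast.
Cdk1: agaaTTTTATgggtggggtggggtgggggc
Ccnb2: tgtaTTTTATtctagtttacatcacaaacc
Ccnb3: ttacTTTTATgaaagaagagaaattgtttt
Cdc25b: tctgttgggggccttggttcAATAAAgcac
A CPE match within 100 bases before a poly(A) signal was present in Cdk1, Ccnb1, Ccnb2, Ccnb3 and Wee2. In Cdk1 the CPE matches began 1835 and 1135 bases before the end of a 3′ UTR of 3352 bases, far from the annotated 3′ end. Cdc25a had 6 CPE matches in 1676 bases and none at that distance. Over the 9046 genes that averaged 1 FPKM or more and have an annotated 3′ UTR, 32.3% had such a pair and 61% had a CPE match anywhere. A match is only letters: it does not show that CPEB1 binds there or which 3′ end the oocyte uses.

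The authors' unit is FPKM, which divides fragments by transcript length and by the mapped total, so it gives the share of a library and not mRNA per oocyte. Fewer cells that hold an mRNA and less of it per cell cannot be told apart. With no replicate in any group there is no test here, and a difference of at least 2-fold on log2((FPKM + 1)/(FPKM + 1)) was called higher or lower as a rule of size. FPKM summed to between 401160 and 453226 per library, the depth is unknown, and the median half-width of the authors' confidence bounds was 8.16% to 9.73% of the value among rows of at least 10 FPKM that lay within their own bounds. Bounds are quoted only for values inside them. The values of Ccnb1 in every library, and of Ccnb2 and Wee2 in all but the GV library labelled Erk-/-, lay outside their own bounds. All 11 oocyte markers were at 1 FPKM or more in all 4 libraries, while 9 to 12 of 14 granulosa and cumulus markers (summed level 12.4 to 22.7 FPKM) and 7 to 8 of 9 blood and stroma markers (27.1 to 64.3 FPKM, nearly all Pecam1) were listed at 0. Mapk3, which encodes ERK1, had 34.3 FPKM in MII oocytes labelled Erk-/- and 25.7 in WT MII, against 52.3 in GV oocytes labelled Erk-/- and 333 in WT GV. Mapk3 was therefore not lower in the MII library labelled Erk-/-, and every direction given for that library rests on its label.

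Cdk1, the kinase of MPF (mm9 chromosome 10, 68799383 to 68815660), was lower at MII than at GV in both genotypes, and its value was near 0 in WT MII only. It had 11.4 FPKM in MII oocytes labelled Erk-/- (authors' bounds 9.81 to 12.7) and 0.0328 in WT MII (0 to 0.0925), against 31.5 in GV oocytes labelled Erk-/- (27.8 to 34.3) and 90.3 in WT GV (82.1 to 91.2). The WT libraries hold both the highest and the lowest of the 4 values, and the bounds of no pair of libraries overlap. The MII over GV log2 ratio was -1.39 in the libraries labelled Erk-/- and -6.47 in WT, where it was number 61 from the lowest of 9990 genes. A fold against WT MII is not quoted because the lower bound there is 0. Values that close to 0 were common in WT MII: of genes with at least 10 FPKM at GV, 213 of 5543 were under 0.1 FPKM at MII in the libraries labelled Erk-/-, against 854 of 5682 in WT. Labelled Erk-/- over WT, Cdk1 was at 34.9% of the WT level at GV, and at MII the log2 ratio was 3.59.

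**Figure D1:**
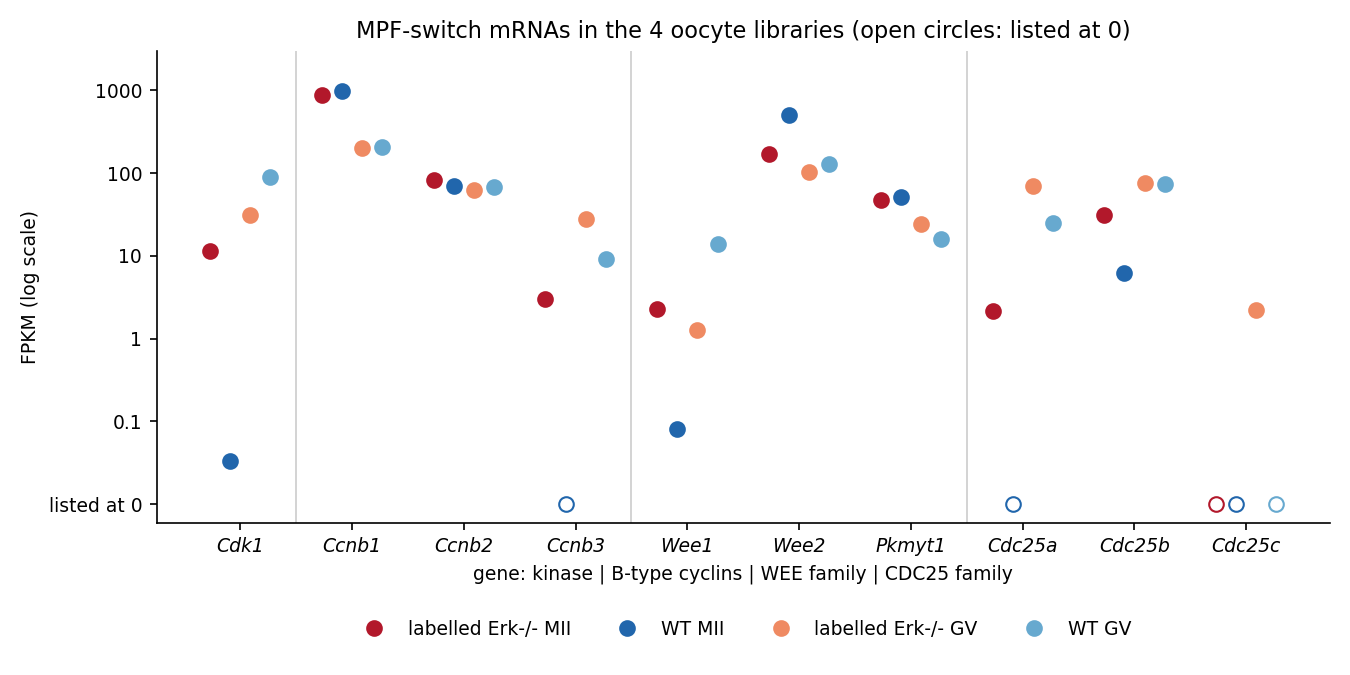
FPKM (log scale) of the 10 genes in each library, 1 point per library, with the MII libraries left of the GV libraries and open circles for values listed at 0. Ccnb1 and Wee2 are the highest at MII, and Cdk1, Ccnb3, Wee1 and Cdc25a are at or near 0 in WT MII alone of the 4 libraries.

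The B-type cyclins had 3 different patterns as deposited. Ccnb1, the main partner of CDK1 in oocytes (chromosome 13, 101548694 to 101556441), was the highest of the 10 genes in every library. It had 884 FPKM in MII oocytes labelled Erk-/- and 973 in WT MII, against 201 in GV oocytes labelled Erk-/- and 208 in WT GV. The MII libraries stood at 4.40 times (labelled Erk-/-) and 4.67 times (WT) their GV libraries, while the libraries labelled Erk-/- were at 90.9% of the WT level at MII and 96.3% at GV. After median-of-ratios scaling the MII over GV log2 ratio was 2.33 in the libraries labelled Erk-/- and 3.04 in WT, against 2.13 labelled Erk-/- and 2.22 in WT as deposited, so how near the genotypes lie depends on the scaling. At MII the genotype log2 ratio was -0.14 as deposited and -0.67 scaled. At GV the order of the genotypes turned under median-of-ratios scaling (log2 -0.05 as deposited, 0.04 scaled). Ccnb1 ranked number 47 of all symbols in the MII library labelled Erk-/- and 45 in WT MII, against 361 in GV oocytes labelled Erk-/- and 364 in WT GV.

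Ccnb2, which can stand in for cyclin B1 at meiotic resumption in mouse oocytes (chromosome 9, 70255496 to 70269361), was level as deposited. It had 82.1 FPKM in MII oocytes labelled Erk-/- and 68.9 in WT MII, against 62.2 in GV oocytes labelled Erk-/- and 67.2 in WT GV. The highest deposited value is 1.32 times the lowest. After scaling the MII over GV log2 ratio was 0.59 in the libraries labelled Erk-/- and 0.85 in WT. As deposited it was 0.40 in the libraries labelled Erk-/- and 0.04 in WT, so how level Ccnb2 is depends on the scaling. At MII the log2 ratio of labelled Erk-/- over WT was 0.25 as deposited and -0.28 after scaling, so no direction holds. Ccnb3, whose protein is needed for anaphase of the first division in mouse oocytes (chromosome X, 6556778 to 6618745), went the other way from Ccnb1. It had 3.05 FPKM in MII oocytes labelled Erk-/- (2.54 to 3.55) and was listed at 0 in WT MII, against 27.9 in GV oocytes labelled Erk-/- (25.5 to 30.1) and 9.17 in WT GV (8.12 to 10.2). Both MII libraries were below both GV libraries, and at each stage the library labelled Erk-/- was the higher. At GV it was 3.04-fold higher than WT. Ccnb1 and Ccnb2 have pseudogene copies in RefSeq's table (Ccnb1-ps on chromosome 7 and Ccnb2-ps on chromosome 8), and how the authors assigned reads that fit a copy is not given in the sources used here, so both levels are uncertain to that extent.

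Among the inhibitory kinases, Wee2 was higher at MII in WT than in the library labelled Erk-/-, Pkmyt1 was alike in both as deposited and Wee1 was low. Wee2, the oocyte-specific WEE kinase that keeps CDK1 blocked in GV oocytes and acts again at exit from MII (chromosome 6, 40392862 to 40416814), had 171 FPKM in MII oocytes labelled Erk-/- and 500.5 in WT MII. At GV it had 104 FPKM in oocytes labelled Erk-/- and 128 in WT. The WT MII library stands apart from the other three, which lie within 1.64-fold of each other. MII over GV, Wee2 was 1.64-fold higher in the libraries labelled Erk-/- and 3.92-fold higher in WT. At MII the log2 ratio of labelled Erk-/- over WT was -1.55, number 307 from the lowest of 9990 genes, and under the alternatives it lay between -2.08 and -1.55.

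Pkmyt1, the membrane-bound kinase that can phosphorylate both residues of the loop (chromosome 17, 23863303 to 23873696), was higher at MII than at GV in both genotypes. It had 47.6 FPKM in MII oocytes labelled Erk-/- (42.2 to 49.9) and 51.4 in WT MII (45.7 to 53.7), against 23.9 in GV oocytes labelled Erk-/- (20.5 to 26.0) and 16.0 in WT GV (13.6 to 18.1). The bounds of the MII libraries overlap each other and lie above those of both GV libraries. At MII the genotype log2 ratio was -0.11 as deposited and -0.63 scaled, so how near the genotypes lie depends on the scaling. MII over GV it was 1.99-fold higher in the libraries labelled Erk-/- and 3.22-fold higher in WT. The ratio in the libraries labelled Erk-/- (log2 0.96) is just under the 2-fold line on the log2(FPKM + 1) scale and just over it after scaling (1.16). The Pkmyt1 locus overlaps that of Paqr4 in the authors' files. Paqr4 had 8.26 FPKM in MII oocytes labelled Erk-/- and 9.97 in WT MII, against 29.7 in GV oocytes labelled Erk-/- and 18.9 in WT GV. Reads from the overlap cannot be told apart if the counting ignored strand, and Paqr4 was lower at MII where Pkmyt1 was higher.

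Wee1, the WEE kinase of somatic cells (chromosome 7, 117265573 to 117286813), was the lowest of the 3. It had 2.28 FPKM in MII oocytes labelled Erk-/- (1.77 to 2.77) and 0.0815 in WT MII (0 to 0.155), against 1.26 in GV oocytes labelled Erk-/- (0.851 to 1.67) and 13.9 in WT GV (12.2 to 15.6). WT GV is the only library above 3 FPKM. At GV, Wee1 in oocytes labelled Erk-/- was at 9.03% of the WT level. The MII over GV log2 ratio was 0.54 in the libraries labelled Erk-/-, with both values under 3 FPKM, and -3.79 in WT.

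Cdc25a and Cdc25b were lower at MII than at GV in both genotypes, and lower in WT MII than in the MII library labelled Erk-/-. Cdc25b, required for meiotic resumption in the mouse (chromosome 2, 131012684 to 131024247), had 31.0 FPKM in MII oocytes labelled Erk-/- (28.7 to 33.3) and 6.13 in WT MII (5.23 to 7.03). At GV it had 75.1 FPKM in oocytes labelled Erk-/- (71.0 to 79.5) and 73.7 in WT (69.8 to 77.7). The GV libraries overlap within their bounds, and the MII libraries do not. At MII, Cdc25b was therefore at 41.3% of the GV level in the libraries labelled Erk-/- and at 8.32% in WT, and at MII it was 5.06-fold higher in the library labelled Erk-/- than in WT. Of the 10 genes, Cdc25b is the one with near-equal GV levels and a difference of over 5-fold at MII as deposited. Its genotype log2 ratio at MII was 2.17 as deposited and 1.69 after scaling, so the size depends on the scaling.

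Cdc25a, which also acts on CDK1 during maturation (chromosome 9, 109778083 to 109796394), had 2.17 FPKM in MII oocytes labelled Erk-/- (1.69 to 2.64) and was listed at 0 in WT MII. At GV it had 69.7 FPKM in oocytes labelled Erk-/- (63.9 to 72.2) and 25.2 in WT (22.7 to 26.9). Both MII values are far below both GV values, and the GV library labelled Erk-/- was 2.77-fold higher than WT GV. In the libraries labelled Erk-/-, Cdc25a at MII was at 3.11% of its GV level. Cdc25c, which mice can lack without loss of fertility (chromosome 18), had 2.24 FPKM in GV oocytes labelled Erk-/- (authors' lower bound 1.44) and was listed at 0 in the other three libraries. Its mean of 0.561 FPKM is under the minimum of 1, so 9 of the 10 genes entered the counts below. Ccnb3 and Cdc25a passed the minimum through their GV values, and Wee1 chiefly through WT GV.

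**Figure D2:**
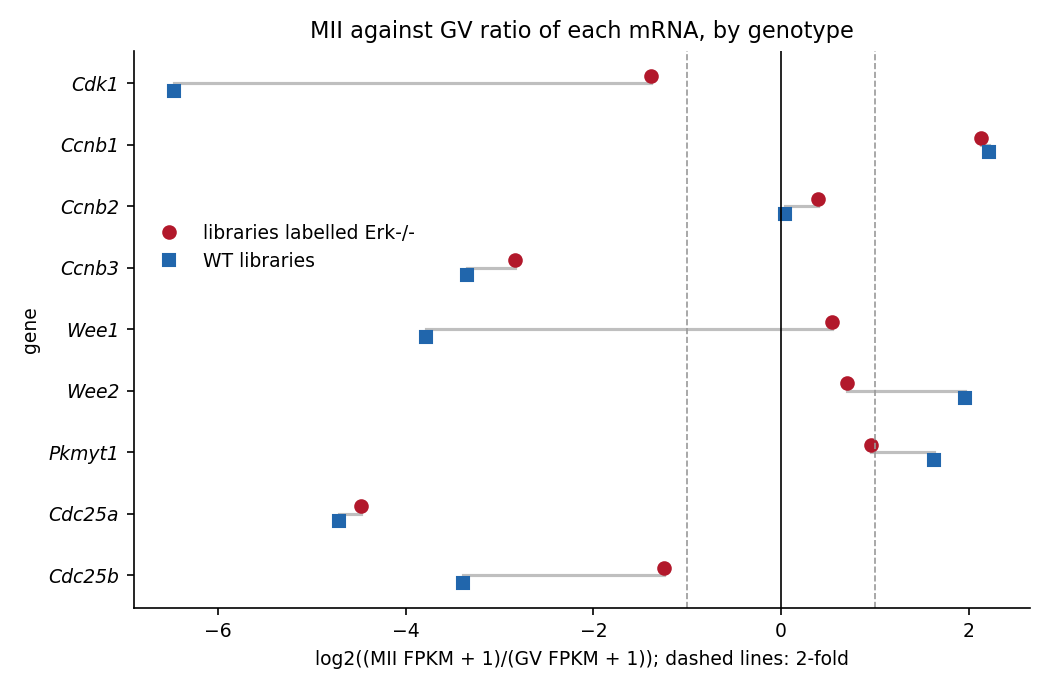
log2((MII FPKM + 1)/(GV FPKM + 1)) of the 9 genes above the minimum level, circles for the libraries labelled Erk-/- and squares for WT, with dashed lines at 2-fold. With the value labelled Erk-/- given before that of WT, Ccnb1 is close as deposited (2.13 and 2.22, but 2.33 and 3.04 after scaling), Cdk1 (-1.39 and -6.47), Wee1 (0.54 and -3.79) and Cdc25b (-1.25 and -3.39) are lower in WT, and Wee2 (0.71 and 1.96) is higher in WT.

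Within each library, shares and ratios of FPKM do not depend on scaling between libraries. Ccnb1 held 91.2% of the summed B-type cyclin FPKM in MII oocytes labelled Erk-/- and 93.4% in WT MII, against 69.0% in GV oocytes labelled Erk-/- and 73.2% in WT GV. Wee2 held 77.4% of the WEE family in MII oocytes labelled Erk-/- and 90.7% in WT MII, against 80.6% in GV oocytes labelled Erk-/- and 81.0% in WT GV. The WEE family was thus mostly Wee2 in all 4 libraries. Within the CDC25 family, Cdc25b held 93.5% in MII oocytes labelled Erk-/- and 100% in WT MII, against 51.1% in GV oocytes labelled Erk-/- and 74.5% in WT GV, the remainder at GV being nearly all Cdc25a.

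The summed WEE family FPKM over the summed CDC25 family FPKM was 6.65 in MII oocytes labelled Erk-/- and 90.0 in WT MII, against 0.881 in GV oocytes labelled Erk-/- and 1.59 in WT GV. MII libraries were above GV libraries in both genotypes, 7.55-fold in the libraries labelled Erk-/- and 56.5-fold in WT. The library labelled Erk-/- was below WT at both stages, 1.81-fold at GV and 13.5-fold at MII. At MII both sides of the ratio contributed: the WEE sum was 221 FPKM in the library labelled Erk-/- and 552 in WT, and the CDC25 sum was 33.2 FPKM in the library labelled Erk-/- and 6.13 in WT. These are mRNA levels, and they do not measure kinase or phosphatase activity. The summed B-type cyclins over Cdk1 came to 84.7 in MII oocytes labelled Erk-/-, against 9.22 in GV oocytes labelled Erk-/- and 3.15 in WT GV. In WT MII the ratio has no upper limit, since the lower bound of Cdk1 is 0 there.

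**Figure D3:**
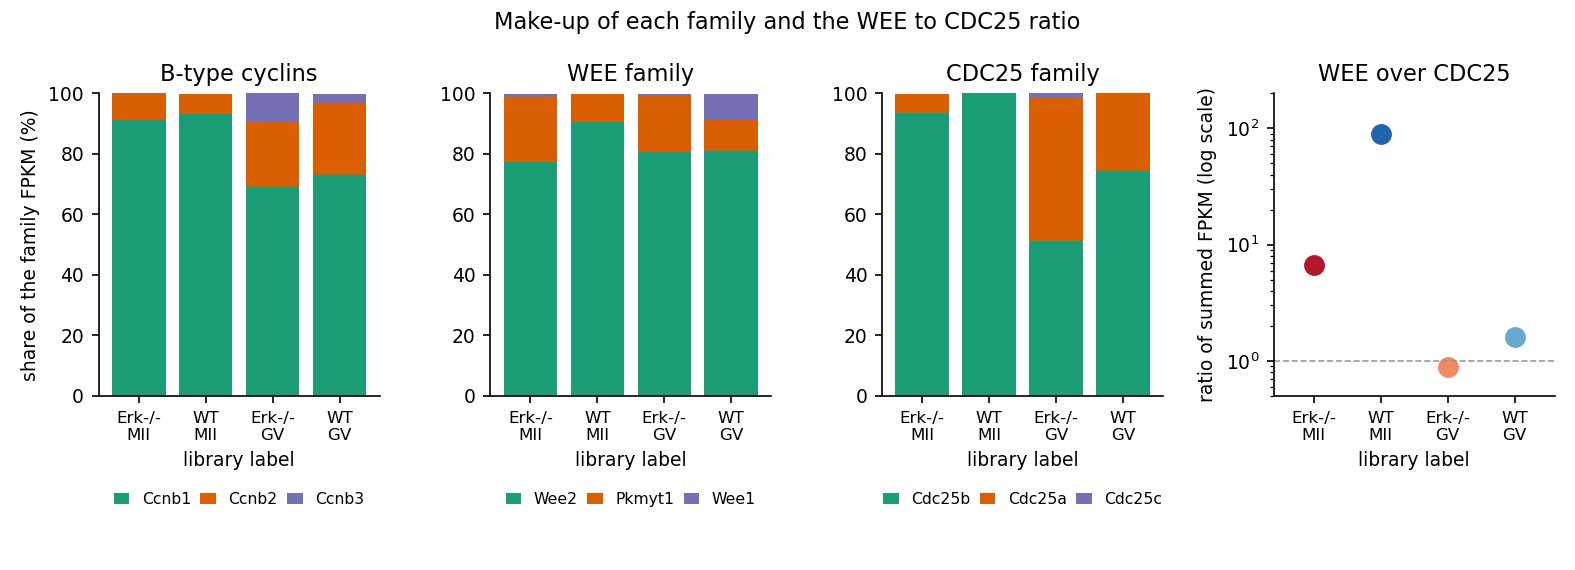
Share of each gene in its family's summed FPKM (%) and, at the right, the summed WEE family FPKM over the summed CDC25 family FPKM (log scale), for each library. The ratio is 6.65 in MII oocytes labelled Erk-/- and 90.0 in WT MII, against 0.881 in GV oocytes labelled Erk-/- and 1.59 in WT GV.

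Counted against all genes, the switch genes can be read beside the background of each comparison. MII over GV in the libraries labelled Erk-/-, 1 of 9 was higher (Ccnb1), beside 22.9% of 9990 genes, and 4 were lower (Cdk1, Ccnb3, Cdc25a and Cdc25b), beside 35.6%. MII over GV in WT, 3 of 9 were higher (Ccnb1, Wee2 and Pkmyt1), beside 20.6%, and 5 were lower (Cdk1, Ccnb3, Wee1, Cdc25a and Cdc25b), beside 49.6%. With 9 genes, none of these shares stands far from its background. The median log2 ratio of the 9 genes was 0.40 in the libraries labelled Erk-/- and -3.35 in WT. Over all genes it was -0.26 in the libraries labelled Erk-/- and -0.97 in WT. The medians of the 9 are the value of Ccnb2 labelled Erk-/- and that of Ccnb3 in WT, and only Wee1 changes sign between the genotypes. They do not show a shift of the whole set: the median difference per gene was 0.36, against 0.59 for all genes. In WT, 29.3% of the genes 2-fold apart were higher at MII as deposited and 42.3% after scaling.

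Labelled Erk-/- over WT at GV, 2 of 9 were higher (Ccnb3 and Cdc25a), beside 18.4% of genes, and 2 were lower (Cdk1 and Wee1), beside 22.9%, with a median log2 ratio of -0.05 for the 9 and -0.06 for all genes. At MII, 5 of 9 were higher (Cdk1, Ccnb3, Wee1, Cdc25a and Cdc25b), beside 31.4%, and 1 was lower (Wee2), beside 7.43%. The 5 that were higher at MII in the library labelled Erk-/- are the 5 that were lower at MII than at GV in WT. Both comparisons use the WT MII library, in which all 5 stand at their lowest, so this overlap is not a second observation. Some oocyte markers differed in the same comparison: 7 of 11 were higher in the MII library labelled Erk-/- and 0 lower, beside 31.4% and 7.43% of all genes. After scaling 6 were higher and 1 lower, beside 2462 and 1704 of 9990 genes. The remaining markers were lower in that library by less than 2-fold as deposited (log2 -0.50 to -0.05). Zp2, a zona pellucida gene, had 449 FPKM in MII oocytes labelled Erk-/- and 78.7 in WT MII, and Padi6, a maternal-effect gene, had 727 in MII oocytes labelled Erk-/- and 58.7 in WT MII. Their part in the values of the switch genes was not tested. The share of switch genes higher at MII was above its background, but it is 5 of 9 and rests on the WT MII library. The other shares, at MII and at GV, were near their background. After scaling 5 were still higher at MII and 1 lower, beside 2462 and 1704 of 9990 genes. The median at MII was 0.31 for all genes and 1.60 for the 9 genes, where it is the value of Wee1, which is near 0 in WT MII. The split of genes 2-fold apart at MII depended on scaling: 80.9% of them were higher as deposited and 59.1% after scaling.

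**Figure D4:**
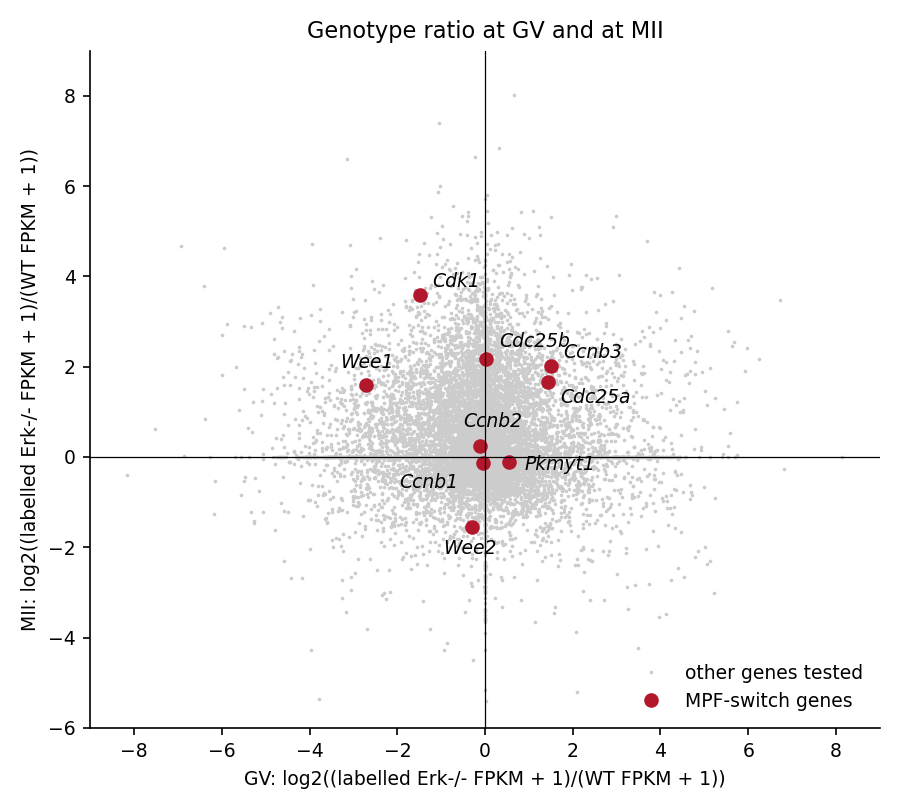
log2((labelled Erk-/- FPKM + 1)/(WT FPKM + 1)) at GV (horizontal) and at MII (vertical) for all genes of at least 1 FPKM on average (grey) and the 9 switch genes (red). As deposited, Ccnb1 and Ccnb2 lie near the origin, Wee2 below it (-0.29 at GV and -1.55 at MII), Cdc25b straight above it (0.03 and 2.17), and Cdk1 (-1.49 and 3.59) and Wee1 (-2.72 and 1.60) in the upper left.

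The MII over GV ratio of the libraries labelled Erk-/- minus that of WT was at least 2-fold positive for 3 of 9 genes, beside 41.2% of all genes, and at least 2-fold negative for 1, beside 18.8%. With 9 genes these counts are near the background. The positive genes were Cdk1 (log2 difference 5.08, and 4.87 to 7.96 over the alternatives), Wee1 (4.32, and 4.01 to 7.08) and Cdc25b (2.14, and 1.57 to 2.29), and the negative gene was Wee2 (-1.26, and -1.88 to -1.26). The sizes for Cdk1 and Wee1 depend on the pseudocount, since both are near 0 in WT MII. Ccnb1 had a difference of -0.08 as deposited and -0.71 after scaling, and Ccnb2 one of 0.36 that turned to -0.26. The median was 0.36 for the 9 genes and 0.59 for all genes, and 68.7% of genes past 2-fold were positive as deposited, against 55.2% after scaling. All 4 libraries enter this difference, so it repeats the values above in another form.

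The proteins that bind or activate CDK1 were followed next. Of 8 genes for CDK1 partners and the CDK-activating kinase, 7 reached the minimum level. MII over GV, 2 were higher and 2 lower in the libraries labelled Erk-/-, beside 22.9% and 35.6% of all genes. In WT, 3 were higher and 3 lower, beside 20.6% and 49.6%. Cks1b, a small CDK-binding subunit, had 244 FPKM in MII oocytes labelled Erk-/- and 305 in WT MII, against 173 in GV oocytes labelled Erk-/- and 89.5 in WT GV. Ccna2, which encodes cyclin A2, had 74.6 FPKM in MII oocytes labelled Erk-/- and 94.3 in WT MII, against 27.7 in GV oocytes labelled Erk-/- and 28.6 in WT GV. Ccna2 was over 2-fold higher at MII in both genotypes, as Ccnb1 was, and Cks1b in WT only, a difference between genotypes that was not tested. Cdk2, a close relative of Cdk1, was at 2.64 FPKM in MII oocytes labelled Erk-/- and 0.792 in WT MII, against 6.23 in GV oocytes labelled Erk-/- and 11.7 in WT GV, so like Cdk1 it was lowest in WT MII. At MII, labelled Erk-/- over WT, 2 of the 7 were higher and 0 lower, beside 31.4% and 7.43% of all genes. The 2 were Cdk2 and Mnat1, a subunit of the activating kinase named after its values were seen. After scaling the counts of higher and lower genes were 1 and 1, beside 2462 and 1704 of 9990 genes.

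The feedback loop around the switch runs through the Polo, Aurora and Greatwall kinases and the phosphatase PP2A, which reverses phosphorylation by CDK1. Of its 13 genes, 1 was higher and 6 lower at MII against GV in the libraries labelled Erk-/-. The shares of all genes there were 22.9% and 35.6%. In WT, 1 was higher and 4 lower, beside 20.6% and 49.6%. Ensa, whose product inhibits PP2A once Greatwall has phosphorylated it, had 11.0 FPKM in MII oocytes labelled Erk-/- and 0.966 in WT MII, against 52.9 in GV oocytes labelled Erk-/- and 8.19 in WT GV. Its genotype log2 ratio was 2.61 at MII and 2.55 at GV, so the gap was there at both stages. Ppp2r2a, a regulatory subunit of PP2A, had 5.51 FPKM in MII oocytes labelled Erk-/- and 16.1 in WT MII, against 14.3 in GV oocytes labelled Erk-/- and 12.0 in WT GV. These were the 2 genes of the list that were 2-fold apart at MII, 1 in each direction, beside 31.4% of all genes higher and 7.43% lower. Scaling made it 1 higher and 2 lower, beside 2462 and 1704 of 9990 genes. Ppp2ca, the catalytic subunit, was low at MII in either genotype, at 6.10 FPKM in oocytes labelled Erk-/- and 5.12 in WT, against 50.4 in GV oocytes labelled Erk-/- and 48.9 in WT GV.

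Cyclin B is destroyed by the anaphase-promoting complex (APC/C) with its activators CDC20 and FZR1. Of 17 genes for this route and its inhibitors, 7 were higher and 5 lower at MII against GV in the libraries labelled Erk-/-. The shares of all genes there were 22.9% and 35.6%. In WT, 6 were higher and 7 lower, beside 20.6% and 49.6%. At MII, labelled Erk-/- over WT, 5 of 17 were higher and 0 lower as deposited, beside 31.4% and 7.43% of all genes. After scaling 2 were higher and 4 lower, beside 2462 and 1704 of 9990 genes. The list thus has no direction that holds under both, and the counts of all genes shifted the same way. Fzr1, the activator that keeps cyclin B low in GV oocytes, had 47.5 FPKM in MII oocytes labelled Erk-/- and 11.1 in WT MII, against 138 in GV oocytes labelled Erk-/- and 146 in WT GV. Fbxo5, which encodes the APC/C inhibitor EMI1, had 7.39 FPKM in MII oocytes labelled Erk-/- and 2.91 in WT MII, against 69.4 in GV oocytes labelled Erk-/- and 86.4 in WT GV. The APC/C subunit gene Anapc5 had 37.8 FPKM in MII oocytes labelled Erk-/- and 13.3 in WT MII, against 92.1 in GV oocytes labelled Erk-/- and 126 in WT GV. Anapc4, another subunit gene, had 43.6 FPKM in MII oocytes labelled Erk-/- and 20.5 in WT MII, against 30.7 in GV oocytes labelled Erk-/- and 28.3 in WT GV. After scaling Fzr1 was still over 2-fold higher at MII (log2 1.51), and Fbxo5 (0.68), Anapc5 (0.94) and Anapc4 (0.54) were not. The genes that were 2-fold lower at MII after scaling, named after their values were seen, were Cdc20 (-0.92 as deposited, -1.45 scaled), the spindle checkpoint genes Bub1b (-0.67 and -1.20) and Mad2l1 (-0.63 and -1.16), and Fbxo43, which encodes the APC/C inhibitor EMI2 (-0.61 and -1.14). Cdc20 had 160.5 FPKM in MII oocytes labelled Erk-/- and 304 in WT MII, against 134 in GV oocytes labelled Erk-/- and 115 in WT GV. Cdc16, also a subunit gene, had 3.46 FPKM in MII oocytes labelled Erk-/- and was listed at 0 in WT MII, against 10.6 in GV oocytes labelled Erk-/- and 21.7 in WT GV.

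Protein kinase A and the 14-3-3 adaptors hold CDC25B inactive in the arrested oocyte. Of 18 genes of this and the checkpoint route, 16 reached the minimum level. MII over GV, 4 were higher and 3 lower in the libraries labelled Erk-/-, beside 22.9% and 35.6% of all genes. In WT, 4 were higher and 6 lower, beside 20.6% and 49.6%. At MII, labelled Erk-/- over WT, 4 were higher and 1 lower, beside 31.4% and 7.43% of all genes. After scaling the counts were 4 and 2, beside 2462 and 1704 of 9990 genes. As deposited, the higher genes were the adaptor genes Ywhaq, Ywhab and Ywhag, and Gpr3, the receptor that keeps cAMP high. The lower gene was Prkar2a, a regulatory subunit of protein kinase A. Gpr3, Prkar2a and Ywhae were named after their values were seen. Ywhaq had 20.7 FPKM in MII oocytes labelled Erk-/- and 0.0910 in WT MII, against 142 in GV oocytes labelled Erk-/- and 100.1 in WT GV, and Ywhab had 12.6 in MII oocytes labelled Erk-/- and 0.0339 in WT MII, against 72.4 in GV oocytes labelled Erk-/- and 71.0 in WT GV. Ywhag had 154 FPKM in MII oocytes labelled Erk-/- and 16.0 in WT MII, against 126 in GV oocytes labelled Erk-/- and 138 in WT GV. Not every adaptor gene differed, since Ywhae had 289.5 FPKM in MII oocytes labelled Erk-/- and 244 in WT MII, against 213 in GV oocytes labelled Erk-/- and 229 in WT GV.

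Of 8 genes of the MOS and ERK cascade, 7 reached the minimum level. MII over GV, 3 were higher and 1 lower in the libraries labelled Erk-/-, beside 22.9% and 35.6% of all genes. In WT, 2 were higher and 4 lower, beside 20.6% and 49.6%. At MII, labelled Erk-/- over WT, 1 was higher and 1 lower, beside 31.4% and 7.43%. Mos, the kinase that starts the cascade and sustains MPF at MII, had 704 FPKM in MII oocytes labelled Erk-/- and 919 in WT MII, against 225 in GV oocytes labelled Erk-/- and 332 in WT GV.

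Genes with the most similar profile were listed for Ccnb1, Cdk1 and Wee2, as the 3 with the smallest Euclidean distance of centred log2(FPKM + 1) over the 4 libraries among 5294 genes of at least 10 FPKM on average. For Ccnb1 they were Hiatl1 (distance 0.07), Tcl1 (0.08) and Fam117b (0.11). Tcl1, which encodes a co-activator of the kinase AKT, had 3213 FPKM in MII oocytes labelled Erk-/- and 3768 in WT MII, against 788 in GV oocytes labelled Erk-/- and 789 in WT GV. For Cdk1 they were Gbx2 (0.19), Ndufv1 (0.21) and Grcc10 (0.28). Ndufv1, a subunit gene of respiratory complex I, had 9.72 FPKM in MII oocytes labelled Erk-/- and 0.0630 in WT MII, against 32.2 in GV oocytes labelled Erk-/- and 90.2 in WT GV, and Grcc10 was listed at 0 in WT MII. For Wee2 they were Taf13 (0.18), Stard3nl (0.29) and C87499 (0.30), and Taf13, a subunit gene of the general transcription factor TFIID, had 30.1 FPKM in MII oocytes labelled Erk-/- and 80.8 in WT MII, against 16.4 in GV oocytes labelled Erk-/- and 23.5 in WT GV. With 4 libraries, likeness of this kind is a description of 4 values.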

How the data were processed

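The authors deposited FPKM with a lower and an upper bound per gene, per the file headers; CASAVA 1.8, TopHat and build mm9 are named in the submitters' processing notes. mRNA was purified and sequenced in pairs, per the labels' protocols. For the program that computed FPKM, its annotation, the level of the bounds, strand and how mRNA was selected, the answer is not given in the sources used here. A selection by poly(A) tail would make FPKM depend on tail length too. Rows of 1 symbol were summed. Locus starts were taken as counted from 0 (gene length matched for 9170 of 21279 symbols, and for 558 with a start counted from 1) and 1 was added. Ratios are log2((FPKM + 1)/(FPKM + 1)) over the 9990 genes that averaged 1 FPKM or more, computed with Python 3.11.15, numpy 2.4.6 and pandas 2.3.3. The code was tested on simulated data. With 1 library per group no p-value is given. The switch genes, gene lists, motifs and 3′ UTR search were chosen with earlier results of these data known. Named genes are the 10 switch genes, up to 3 genes per list with the largest ratio at MII and in WT maturation among those of at least 10 FPKM, and the 3 nearest profiles of 3 genes. Of the genes this rule picks, those the text does not describe (Cdk7, Ppp1ca, Ppp2r1a, Ppp2r2d, Ywhah, Map2k1, Map2k2, Rps6ka1, Rps6ka3, Nobox and Cyp19a1) enter the counts and marker sums only, and 1 further gene is not reported here. Mnat1, Gpr3, Prkar2a, Ywhae, Mos, Cdc20, Bub1b, Mad2l1, Fbxo43 and Paqr4 are named outside the rule, after their values were seen. Alternatives were a pseudocount of 0.1, median-of-ratios scaling, no minimum level, a minimum mean of 10 FPKM, leaving out genes listed at 0, the highest row of a symbol, and the authors' bounds.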

Additional observations from a re-analysis of the deposited data

Results flagged for a closer look

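With 1 library per group, a result was picked out where the same contrast had opposite signs in the genotypes or at the stages. None of these differences was tested. For Wee1, MII over GV had a log2 ratio of 0.54 in the libraries labelled Erk-/- and -3.79 in WT, a difference of 4.32, and the genotype ratio was likewise positive at MII (1.60) and negative at GV (-2.72), again 4.32 apart. For Cdk1, labelled Erk-/- over WT had a log2 ratio of 3.59 at MII and -1.49 at GV, a difference of 5.08. For Ccnb2 the ratios were 0.25 at MII and -0.11 at GV, a difference of 0.36 that changed sign under scaling. For Pkmyt1 they were -0.11 at MII and 0.56 at GV, a difference of -0.66.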

How the results depend on the processing

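No paired analysis was possible because each group has 1 library, and for the same reason no replicate could be left out. No called ratio of a switch gene changed sign under any alternative, though 13 of 45 ratios moved by over 1.5 times with a pseudocount of 0.1 FPKM and 9 of 45 with median-of-ratios scaling. The difference of maturation ratios reached 7.96 for Cdk1 and 7.08 for Wee1 with that pseudocount. A pseudocount of 0.1 gave 5 of 9 switch genes with a positive difference of maturation ratios (adding Ccnb3 and Cdc25a) in place of 3. Over all genes this count was 4694 of 9990 in place of 4120, so the background rose as well. Over all genes the median shifted under scaling by 0.18 in maturation labelled Erk-/-, 0.67 in WT maturation, -0.31 between genotypes at MII and -0.49 in the difference. Scaling gave 2 switch genes higher in maturation labelled Erk-/-, beside 2497 of 9990 genes, and 2 with a negative difference, beside 2653. In both, Pkmyt1 was added. Between genotypes, 1704 genes were lower at MII in place of 742. With no minimum level the negative differences also numbered 2 of 10, with Cdc25c, beside 2264 of 23309 genes.

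At a mean of at least 10 FPKM, 1170 genes were higher and 1854 lower in maturation labelled Erk-/-, and 1218 and 2553 in WT. Labelled Erk-/- over WT gave 647 higher and 788 lower at GV, with 1 switch gene lower, and 1754 and 281 at MII, and the difference gave 2070 and 742. Leaving out every gene with a 0 in some library, 1449 were higher and 2220 lower in maturation labelled Erk-/-, with 2 switch genes lower, and 3196 lower in WT, with 3 switch genes lower. Labelled Erk-/- over WT then gave 966 higher and 1183 lower at GV, with 0 switch genes higher, and 1980 and 428 at MII, with 3 switch genes higher, and the difference gave 2538 and 1101. These smaller counts come with fewer genes, 5294 and 6967 in place of 9990, and with 8 and 7 switch genes in place of 9. B-type cyclins over Cdk1 in WT MII came to 31752 from the deposited values and 10261 with cyclins at their lower and Cdk1 at its upper bound. Neither is a measured size, since the lower bound of Cdk1 is 0 and the Ccnb1 value lies above its own upper bound. Depth is unknown, so values near 0 cannot be told from absence.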
